A study of Mus musculus with 10 samples.

Results

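The 10 genes examined encode the calprotectin pair (*S100a8* and *S100a9*), proteins of neutrophil granules (*Lcn2*, *Ltf*, *Camp*, *Ngp*, *Mpo* and *Elane*), the neutrophil resistin-like protein *Retnlg* and the chemokine receptor *Cxcr2*. They were taken from a list by gene name, and all 10 were among the 55487 genes of the count table. Only 3 of the 10, *S100a8*, *S100a9* and *Lcn2*, passed the filter on low values, which asked for more than 1 count per 1000000 of the library total (CPM) in at least 3 libraries and left 13740 genes for testing. Levels are given as CPM, or per kilobase of exon (RPKM) where genes are compared with each other.

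RNA was sequenced from spinal cord cells of 5 male young adult mice with experimental autoimmune encephalomyelitis (EAE), taken at the peak of disease after immunization with a myelin oligodendrocyte glycoprotein peptide in complete Freund's adjuvant and pertussis toxin. All mice were C57BL/6 animals carrying the same knock-in reporter allele, which places yellow fluorescent protein (YFP) under an endogenous locus, so YFP reports transcription of that locus and not the activity of its protein. From each animal, viable cells that bore CD45 and CX3CR1 but neither CD3 nor Ly6G were sorted into YFP-positive (YFP+) and YFP-negative (YFP-) cells, which gave 10 libraries, 5 per group, from animals m2, m6, m234, m235 and m236. The comparison asks how the myeloid cells in which the reporter was on differ from those beside them in which it was off. Libraries were made from 200000 YFP+ cells or 100000 YFP- cells. Because microglia, border macrophages and macrophages that arise from monocytes can each carry CX3CR1, the gate can hold any of them. Cells with surface Ly6G, the usual marker of mouse neutrophils, were discarded.

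Library totals were 28870482 to 33826355 counts (median 31235168) in YFP+ cells and 8396863 to 35455643 (median 29727408) in YFP- cells. The shallowest, YFP- m234, had 8.40 counts per CPM, against 35.5 in the deepest. A count of 0 in every library of a group allows a level of up to 0.0191 CPM in YFP+ cells and 0.0227 CPM in YFP- cells, set at 3 counts over the group and covering counting error only.

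S100A8 and S100A9 pair to form calprotectin, a calcium- and zinc-binding complex that fills the cytosol of neutrophils and is also made by inflammatory monocytes. Neutrophil granules are loaded in sequence during maturation in the marrow: azurophil granules with myeloperoxidase and elastase come first, and specific granules with lactoferrin, lipocalin 2 and cathelicidin follow. In EAE, both neutrophils and monocytes enter the spinal cord, neutrophils largely through chemokines that bind CXCR2.

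The name of this gene group refers to neutrophils, and the markers of that cell type gave mixed levels, some at or near 0 and others well above it. *Cxcr1*, *Stfa1* and *Stfa2* had 0 counts in all 10 libraries. *Ly6g* had 9 counts over the 5 YFP+ libraries and 5 over the 5 YFP- libraries, *Stfa2l1* had 1 and 1, and *Retnlg* had 0 and 3. *Csf3r*, in contrast, averaged 142 CPM in YFP+ and 186 CPM in YFP- cells, *Mmp8* 203 and 115 CPM, *Cd177* 8.36 and 18.0 CPM and *Padi4* 2.90 and 2.58 CPM. The 10 genes are therefore described as calprotectin and granule genes, without a cell of origin. In sorted bulk cells, fewer cells of a type and less RNA per cell cannot be told apart.

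*S100a8* was the most abundant of the 10 genes as counted and differed between the groups by less than its spread between animals, whereas *S100a9* and *Lcn2* were lower in YFP+ cells. Among the 3 members tested, edgeR put 2 at a false discovery rate (FDR, the Benjamini-Hochberg adjusted p) below 0.05 in the lower direction, against 6.15% of all genes tested, and both also changed by more than 1 on the log2 scale, as did 0.888% of genes tested. None of the 3 was higher in YFP+ cells in edgeR, DESeq2 or limma, nor at an unadjusted p below 0.05 in any of these tools (0 members each), against 6.82% of all genes higher at that FDR in edgeR. *S100a9* passed the filter through 3 YFP- libraries and 0 YFP+ libraries, so it could enter the test only by being higher in YFP- cells, and the count of 2 is not a measure of the group of genes. With all genes of at least 1 count fitted, 3 of the 10 (*S100a9*, *Lcn2* and *Cxcr2*) were lower and 0 higher, against 2.32% of 29542 genes lower. At an unadjusted p below 0.05 with these genes, 4 of the 10 were lower and 0 higher by edgeR, against 8.60% of all genes lower and 8.65% higher. By DESeq2 and by limma 3 were lower and 0 higher, against 8.30% of genes lower and 7.90% higher in DESeq2 and 7.62% lower and 9.29% higher in limma. With the animal as a replicate block, which compares the fractions within each animal, 1 of the 3 tested (*S100a8*) was higher and 2 were lower, against 16.8% and 18.3% of genes tested.

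*S100a8* (ENSMUSG00000056054) encodes the smaller calprotectin subunit and lies on the forward strand of chr3:90668978-90670035 (GRCm38), with 486 exon bases in 1 transcript. In YFP+ cells it stood at 17.5 CPM in m2, 28.6 in m6, 15.7 in m234, 28.0 in m235 and 28.3 in m236. In YFP- cells it stood at 16.1 CPM in m2, 27.4 in m6, 10.5 in m234, 22.9 in m235 and 24.4 in m236. The same animals, m2 and m234, were the low ones in both fractions, and the groups overlapped over most of their range. Within each animal the YFP+ level was the higher one, in 5 of 5 animals, by 0.10 (m6) to 0.63 (m234) in log2 CPM. Group means were 23.6 ± 6.45 CPM and 20.3 ± 6.86 CPM (SD, n = 5 each). The log2 fold change (YFP+ over YFP-) of 0.23 (SE 0.244, FDR 0.560 in edgeR) was smaller than the spread between animals, and a 2-sided exact permutation test of log2 CPM gave p = 0.413. Here and below, that test shuffles libraries without regard to the animal, so its p ignores the pairing. With the animal as a replicate block the log2 fold change was 0.26 at an FDR of 0.0154, so the call for *S100a8* depends on whether the pairing is used.

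*S100a9* (ENSMUSG00000056071) encodes the other calprotectin subunit and lies on the reverse strand of chr3:90692632-90695721, with 522 exon bases. Its level was 0.346 CPM in m2, 0.352 in m6, 0.158 in m234, 0.177 in m235 and 0.161 in m236 in YFP+ cells. In YFP- cells it was 6.50 CPM in m2, 3.84 in m6, 0.476 in m234, 1.06 in m235 and 0.606 in m236. The lowest YFP- library was still above the highest YFP+ one, but YFP- m2 and m6 stood well above the other 3. These values rest on few reads: 5 to 11 counts per YFP+ library, and 199, 136, 4, 30 and 18 counts in the YFP- libraries in the same order of animals.

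On average *S100a9* stood at 0.239 ± 0.101 CPM in the YFP+ libraries against 2.50 ± 2.62 CPM in the YFP- ones (SD, n = 5 each). The log2 fold change was −3.40 (SE 0.708, FDR 0.00977 in edgeR), and the direction held in 5 of 5 animals. The unpaired 2-sided exact permutation test gave p = 0.00794, the smallest that 5 against 5 libraries allow when the animal is ignored. In limma the log2 fold change was smaller, −2.41 (FDR 0.0279) with a prior count of 2. *S100a9* and *Lcn2* were both among the genes whose groups did not overlap with the lower level in YFP+ cells, as were 7.61% of genes tested. Of the 387 *S100a9* counts in YFP- cells, 335 (86.6%) came from m2 and m6, whose libraries held 49.9% of all YFP- counts. Without the YFP- libraries of m2 and m6, an alternative chosen after seeing the data, *S100a9* fell below the filter, and with no filter its log2 fold change was −1.60 (FDR 0.0745). It also fell below the filter when the YFP- library of m2, m6 or m235 was left out singly, alone or with its YFP+ partner.

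**Figure D1:**
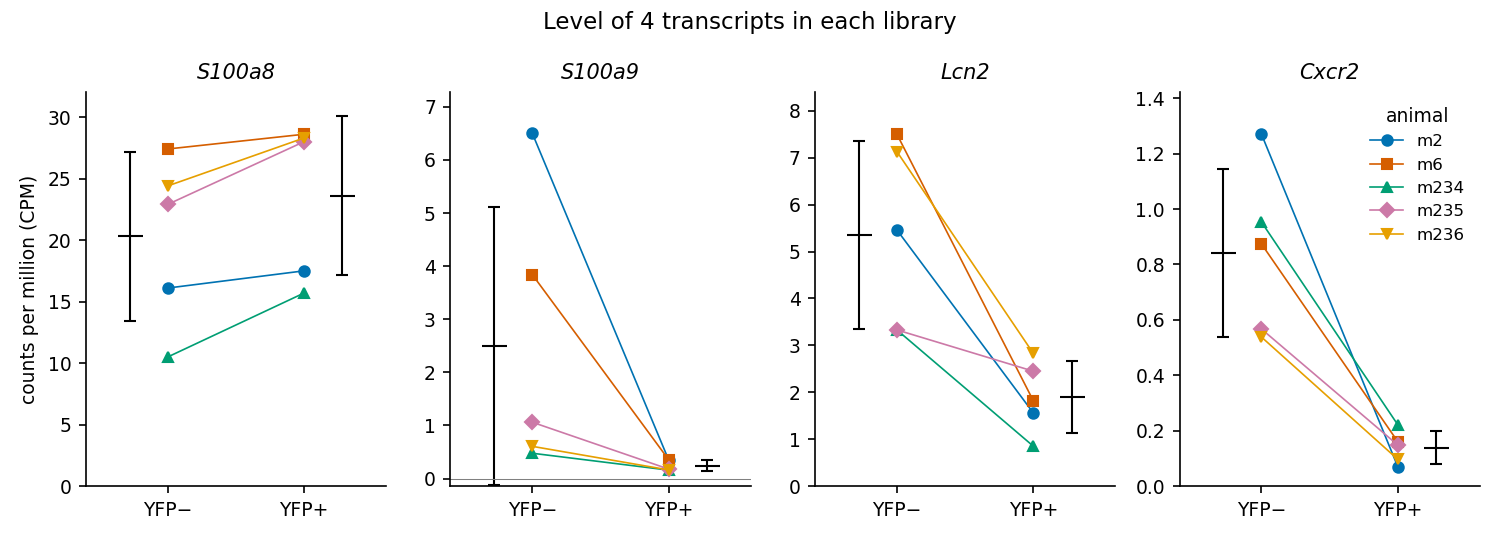
Level of *S100a8*, *S100a9*, *Lcn2* and *Cxcr2* in each library, in CPM on linear axes, with a line joining the YFP- and YFP+ library of each animal and black marks for the group mean ± SD (n = 5). *S100a8* is slightly higher with YFP within each animal while the groups overlap (means 20.3 and 23.6 CPM), and the other 3 genes are lower in the YFP+ library of all 5 animals, with YFP- m2 (6.50 CPM) and m6 (3.84 CPM) standing apart for *S100a9*.

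Per length, the calprotectin subunits were far from equal in these counts. *S100a8* averaged 48.6 RPKM in YFP+ cells and 41.7 RPKM in YFP- cells, and *S100a9* 0.458 RPKM and 4.78 RPKM. *S100a9* stood at 1.85% of the *S100a8* level per length in m2, 1.15% in m6, 0.937% in m234, 0.591% in m235 and 0.529% in m236 among YFP+ cells. Among YFP- cells the share was 37.5% in m2, 13% in m6, 4.23% in m234, 4.33% in m235 and 2.31% in m236. The share was lower in the YFP+ library of all 5 animals, and m2 and m6 again held the highest YFP- values.

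The effect of read assignment on the *S100a9* level was not tested. Reads were counted over transcripts in a mode that drops a read matching more than 1 feature, and 97.5% of the *S100a9* exon bases lie in both of its annotated transcripts, while *S100a8* has a single transcript. Among protein-coding genes with at least 2 transcripts that share at least 95% of their bases, 1084 of 1952 (55.5%) passed the filter, against 4316 of 9954 (43.4%) of those with a single transcript. These sets were not matched in expression, so the shares cannot show whether reads in shared bases were dropped. *Mpo* (77.7%), *Cxcr2* (72.8%) and *Ltf* (19.9%) also have exon bases that lie in more than 1 transcript, and the other members have a single one. The levels of these 4 genes per length, relative to those of the other members, are therefore uncertain. Neither *S100a8* nor *S100a9* shares a 50-base stretch of its transcripts with another gene.

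*Lcn2* (ENSMUSG00000026822) encodes lipocalin 2, a specific granule protein that binds bacterial siderophores and is also made by macrophages and astrocytes under inflammation. It lies on the reverse strand of chr2:32384633-32388252, with 915 exon bases. Its level was 1.56 CPM in m2, 1.82 in m6, 0.852 in m234, 2.45 in m235 and 2.83 in m236 in YFP+ cells. In YFP- cells it was 5.46 CPM in m2, 7.50 in m6, 3.33 in m234, 3.33 in m235 and 7.13 in m236. All YFP- libraries lay above all YFP+ libraries, and animal m235 showed the narrowest gap, 2.45 against 3.33 CPM.

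Group means of *Lcn2* were 1.90 ± 0.773 CPM and 5.35 ± 2.00 CPM (SD, n = 5 each), or 2.08 and 5.85 RPKM. The log2 fold change was −1.48 (SE 0.316, FDR 0.0114 in edgeR), with the lower level in YFP+ cells of 5 of 5 animals, and the unpaired 2-sided exact permutation test gave p = 0.00794. The gene missed the FDR limit without animal m2 (log2 fold change −1.42, FDR 0.0664) and without animal m6 (−1.30, FDR 0.0785). Without the YFP- libraries of m2 and m6 it missed the limit with the filter (−1.27, FDR 0.0806) and passed with no filter (−1.25, FDR 0.0341).

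The other specific granule genes were sparse, with no more than 23 counts in any library. *Ltf* (lactoferrin, an iron-binding protein) had 39 counts over the YFP+ libraries, at 0.0947 to 0.352 CPM, and 63 over the YFP- libraries, at 0.319 to 0.751 CPM. It was lower in YFP+ cells of 5 of 5 animals, but the groups overlapped and the fit without a filter gave a log2 fold change of −0.88 (FDR 0.284 in edgeR). *Camp* (cathelicidin, an antimicrobial peptide precursor) had 24 and 18 counts, at 0.0591 to 0.320 CPM in YFP+ cells and 0.0709 to 0.294 CPM in YFP- cells. *Ngp* (neutrophilic granule protein) had 5 and 19 counts, and its 19 YFP- counts came from m2 (11 counts) and m6 (8 counts), the animals with the highest YFP- *S100a9*. Without a filter, *Camp* and *Ngp* had log2 fold changes of 0.22 (FDR 0.876) and −1.87 (FDR 0.381), neither past the limit.

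For the azurophil granule enzymes, no difference was detectable at this depth. *Mpo* (myeloperoxidase) had 109 counts in YFP+ cells, at 0.242 to 1.55 CPM, and 70 in YFP- cells, at 0.101 to 1.31 CPM, with animal m234 the highest in both fractions. Its log2 fold change without a filter was 0.34 (FDR 0.748 in edgeR). Because 512 of its 2904 exon bases are overlapped by the antisense gene *Gm11505*, and no source states that counting used strand, *Mpo* counts are uncertain. *Elane* (neutrophil elastase) had 20 and 33 counts, at 0.0643 to 0.207 CPM in YFP+ cells and 0 to 0.457 CPM in YFP- cells, with a log2 fold change of −0.83 (FDR 0.510). *Retnlg* had no count in YFP+ cells and 3 in YFP- cells (2 in m2 and 1 in m236), so no fold change is given.

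*Cxcr2* (ENSMUSG00000026180), the receptor for neutrophil-attracting CXC chemokines, lies on the forward strand of chr1:74153989-74161246, with 3048 exon bases. In YFP+ cells its level was 0.0693 CPM in m2, 0.160 in m6, 0.221 in m234, 0.148 in m235 and 0.0964 in m236. In YFP- cells it was 1.27 CPM in m2, 0.874 in m6, 0.953 in m234, 0.567 in m235 and 0.538 in m236. The groups did not overlap, and the YFP+ level was the lower one in 5 of 5 animals, from 22 counts against 110.

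Since *Cxcr2* passed 1 CPM in only 1 library, it was not among the genes tested with the filter. With no filter its mean of 0.139 ± 0.0590 CPM against 0.841 ± 0.303 CPM (SD, n = 5 each) gave a log2 fold change of −2.48 (SE 0.400, FDR 7.72e-04 in edgeR). The unpaired 2-sided exact permutation test gave p = 0.00794. Unlike *S100a9*, the gene stayed past the limit without the YFP- libraries of m2 and m6 (−2.12, FDR 0.0284 with no filter). Per length, with the uncertainty given above for its transcripts, it averaged 0.0456 and 0.276 RPKM, and 6.68% of its 50-base stretches occur in other genes such as *Pbld1*.

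Summed over the 10 genes, the level was 20.2 CPM in m2, 32.7 in m6, 18.8 in m234, 31.7 in m235 and 32.3 in m236 in YFP+ cells, and 31.9, 41.0, 17.3, 28.9 and 33.7 CPM in YFP- cells of the same animals. *S100a8* made up 83.5% to 88.3% of that sum in YFP+ libraries and 50.5% to 79.0% in YFP- libraries. As counted, *S100a8* thus made up most of the sum in each library. The sum was nevertheless lower in the YFP+ library of m2, m6 and m236 and higher in that of m234 and m235, and the groups overlapped. The place of *S100a9* in the order of levels per length, and its part of the sum, carry the uncertainty given above for its transcripts. As counted, *S100a8* led in both groups, and *Lcn2* (2.08 RPKM) stood above *S100a9* (0.458 RPKM) in YFP+ cells. In YFP- cells *Lcn2* (5.85 RPKM) and *S100a9* (4.78 RPKM) did not differ beyond the spread of *S100a9* between animals, 0.913 to 12.5 RPKM. The other members averaged 0.238 RPKM or less in either group, with *Mpo* the highest of them (0.238 RPKM in YFP+ and 0.221 RPKM in YFP- cells) and *Retnlg* the lowest (0 and 0.0334 RPKM), apart from *Cxcr2* at 0.276 RPKM in YFP- cells.

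Among other azurophil granule genes, 1 of 5 was tested and 0 passed the limit in edgeR, DESeq2 or limma, with 0 at an unadjusted p below 0.05 in each. That gene, *Prtn3* (proteinase 3), was the most abundant, at 5.12 ± 1.04 CPM and 6.42 ± 1.64 CPM, with a log2 fold change of −0.30 (FDR 0.295). *Bpi* had 0 counts, and *Ms4a3*, a gene of granulocyte and monocyte precursors, had 0 counts in YFP+ cells and 22 in YFP- cells. Below the filter and so not among those tested, *Ms4a3* passed the limit with no filter (FDR 0.0110 in edgeR and 0.0280 in limma), while DESeq2 gave it no FDR. Its level was at most 0.197 CPM in any library, and it was lower in YFP+ cells of 4 of 5 animals. *Ms4a3* kept its edgeR call in 13 of 15 fits that left out a library or an animal (FDR up to 0.0654). It missed the limit without the YFP- libraries of m2 and m6 (FDR 0.0712).

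Other specific and gelatinase granule genes did not move as one. Of 16 such genes 11 were tested, 1 was higher and 2 were lower at the FDR limit, and their median log2 fold change was 0.19 against 0.00 over all genes tested. *Mmp25* (a membrane-anchored metalloprotease) averaged 3.90 ± 0.682 CPM in YFP+ cells and 17.9 ± 4.86 CPM in YFP- cells, with a log2 fold change of −2.14 (SE 0.182, FDR 1.02e-04). *Cd177* (a neutrophil surface protein) averaged 8.36 ± 1.75 and 18.0 ± 3.59 CPM, with −1.08 (SE 0.169, FDR 0.00216), and 5.51% of its 50-base stretches occur in other genes. Both were lower in YFP+ cells of 5 of 5 animals, without overlap. *Adam8*, a protease of many myeloid cells, was higher, with a log2 fold change of 0.74 (FDR 0.0206) and 5 of 5 animals. It kept that call in 12 of the 15 fits that left out a library or an animal (FDR up to 0.0909).

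*Chil3*, a chitinase-like protein also made by monocytes and macrophages, was the most abundant of that list at 3488 ± 2004 and 2824 ± 1720 CPM. Its log2 fold change was 0.34 (FDR 0.664), and it shares 26.9% of its 50-base stretches with *Chil4* and a pseudogene, so its level is uncertain. *Mmp8* (neutrophil collagenase) had 0.84 (FDR 0.0878), and passed the limit without animal m234 (FDR 0.0398), without its YFP+ library (FDR 0.0459) or with the block. With the animal as a replicate block, 6 of the 11 were higher, *Mmp8* (FDR 4.23e-05) and *Chil3* (FDR 0.00132) among them, and 2 were lower. Thus, as for *S100a8*, several of these genes were higher in the YFP+ fraction of each animal while the groups overlapped.

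Genes of the mature neutrophil surface and cytosol included 3 that were lower in YFP+ cells, among 13 tested of 23 in the table, and 0 that were higher in edgeR, DESeq2 or limma, adjusted or unadjusted. Among the 3, *Il1r2* (the decoy interleukin-1 receptor) had a log2 fold change of −2.16 (SE 0.174, FDR 7.53e-05). *Hdc*, the histamine-forming enzyme, had −0.78 (FDR 0.0113) and kept its call in 11 of the 15 such fits (FDR up to 0.0667). Both were lower in 5 of 5 animals, and the list median was −0.13. The most abundant gene, *Csf2rb*, had −0.03 (FDR 0.812). The block gave 1 higher and 4 lower.

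**Figure D2:**
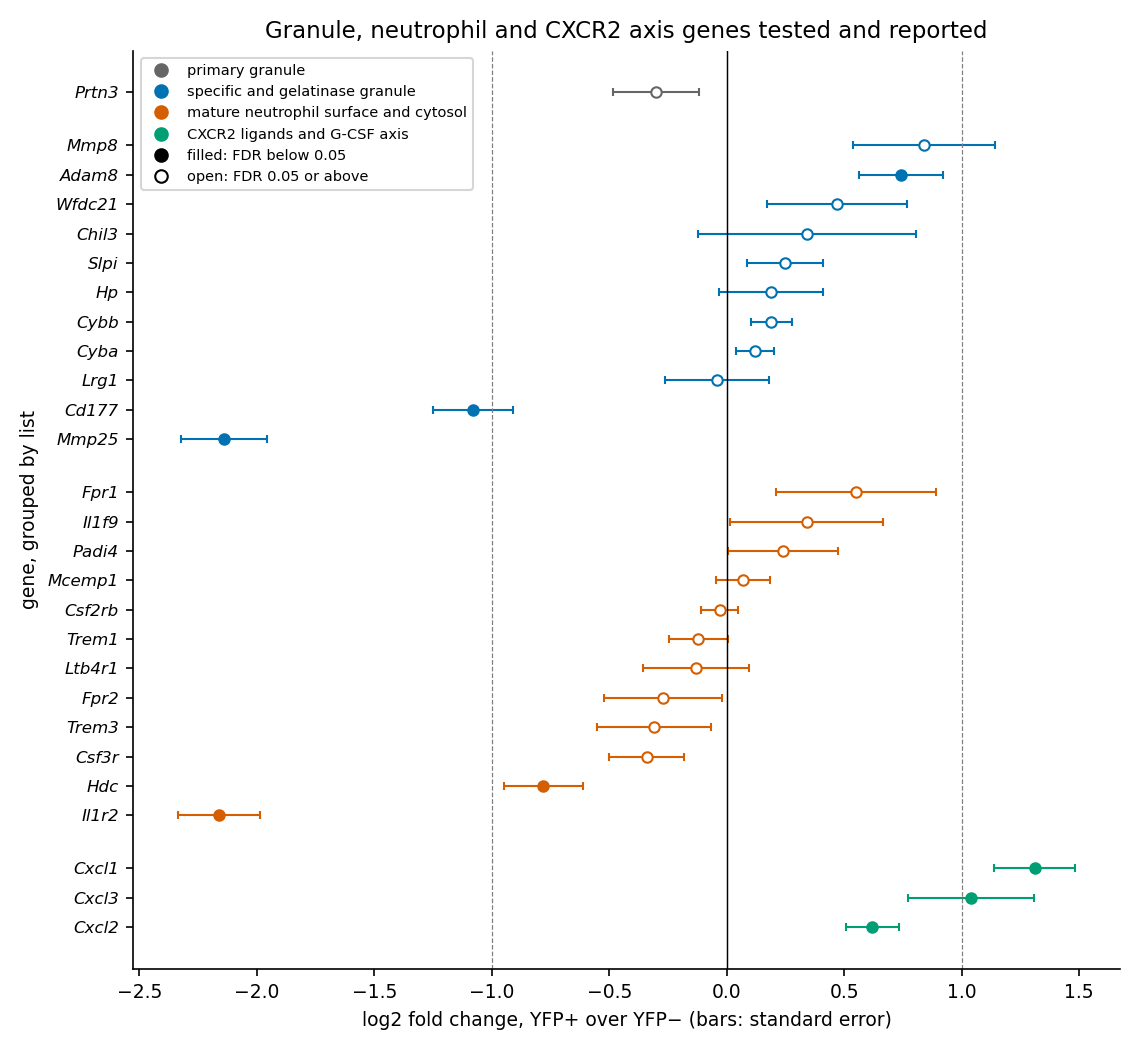
Log2 fold change (YFP+ over YFP-, horizontal axis) of 27 genes tested from 4 lists, those of primary granules, specific and gelatinase granules, the mature neutrophil, and CXCR2 ligands with the G-CSF axis. Bars are standard errors, filled points have an FDR below 0.05 in edgeR, and dashed lines stand at a log2 fold change of 1 in either direction; *Il1r2* and *Mmp25* lie lowest (−2.16 and −2.14) and *Cxcl1* highest (1.31).

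Of the CXCR2 ligands, *Cxcl1*, *Cxcl2* and *Cxcl3* were higher in YFP+ cells, and the others were too sparse to test. Of 8 genes for CXCR2 ligands and the granulocyte growth factor G-CSF with its receptor, 4 were tested, and 3 of them had the higher level in YFP+ cells. The median log2 fold change was 0.83. *Cxcl1* averaged 103 ± 23.9 CPM in YFP+ cells and 42.3 ± 9.50 CPM in YFP- cells, with a log2 fold change of 1.31 (SE 0.172, FDR 8.95e-04). *Cxcl2*, the most abundant at 1903 ± 240 and 1274 ± 175 CPM, had 0.62 (SE 0.114, FDR 0.00538). *Cxcl3* averaged 54.8 ± 18.6 and 26.9 ± 10.2 CPM, with 1.04 (SE 0.268, FDR 0.0262).

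Each of the 3 ligands was higher in 5 of 5 animals, with no overlap. *Cxcl2* and *Cxcl3* share 5.84% and 4.29% of their 50-base stretches with other genes, each other included, and *Cxcl3* kept its call in 8 of the 15 fits that left out a library or an animal (FDR up to 0.0844). *Csf3r*, the G-CSF receptor, had −0.34 (FDR 0.175), and −0.33 (FDR 0.00329) once the block was included. *Cxcl5* had 3 and 2 counts and *Ppbp* 11 and 4, with no call when fitted without a filter (FDR 0.908 and 0.515), and *Cxcl15* had 0 counts. *Csf3*, the gene for G-CSF, was also below the filter, with 171 counts in YFP+ cells and 70 in YFP- cells. It was higher in YFP+ cells of 5 of 5 animals but missed the FDR limit without a filter (1.17, FDR 0.0728).

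Among 8 granulocyte transcription factors 7 were tested, and *Spi1* (−0.21, FDR 0.0226) and *Runx1* (−0.28, FDR 0.0240) were lower in 5 of 5 animals. *Spi1* missed the limit with no filter (−0.20, FDR 0.0750), and each kept its call in 9 of the 15 fits that left out a library or an animal (FDR up to 0.0889 and 0.110). The median was −0.21. *Cebpb*, the most abundant, had −0.05 (FDR 0.760), and *Gfi1*, with the largest change, −0.56 (FDR 0.184). Both genes that passed are expressed by many myeloid cells.

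Other S100 genes gave calls in both directions. Of 14, 7 were tested, 1 was higher and 1 lower, with a median log2 fold change of 0.07, and the block gave 1 higher and 2 lower. *S100a1* was higher (0.46, FDR 0.00850, 5 of 5 animals). *S100a4* was lower (−0.73, FDR 0.0262, 5 of 5 animals), a call it kept in 7 of the 15 fits that left out a library or an animal (FDR up to 0.114), and 302 of its exon bases are overlapped by *Gm42674*, so its counts are uncertain. The most abundant, *S100a10*, had 0.13 (FDR 0.638), and *S100g* and *S100z* had 0 counts.

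Of 11 receptors and partners of the proteins encoded by the 10 genes, 10 were tested and 1 was higher, with a median log2 fold change of 0.09. *Lrp1*, a scavenger receptor that takes up lactoferrin, was higher (0.45, FDR 0.00645, 5 of 5 animals). *Tlr4* and *Cd14*, through which calprotectin signals, had −0.06 (FDR 0.767) and 0.03 (FDR 0.828). *Slc22a17*, a lipocalin 2 receptor, had the largest change at −1.63 (FDR 0.0551 in edgeR, lower in 5 of 5 animals). It passed the limit in DESeq2 (−1.73, FDR 0.00402), with no filter (−1.60, FDR 0.0301), with raw library totals (−1.67, FDR 0.0474) and with the block (−1.50, FDR 0.0116), but in only 1 of the 15 fits that left out a library or an animal (without YFP- m235, FDR 0.0336). YFP- m234 stood apart at 10.4 CPM, against 1.45 to 2.94 CPM in the other YFP- libraries, and without animal m234 the log2 fold change was −0.96 (FDR 0.104). DESeq2 gave 2 higher and 1 lower in this list, limma 1 higher and 0 lower, and the block 5 higher and 1 lower.

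Of the resistin family, 0 of 4 genes were tested: *Retn* had 19 counts in each group, and *Retnla* and *Retnlb* had 0. All 6 genes of the phagocyte oxidase, the complex that makes superoxide beside the granules, were tested, with a median of −0.13. In edgeR 0 passed the limit in either direction, 1 was higher and 3 were lower at an unadjusted p below 0.05, and DESeq2 called 1 lower and limma 0. *Cybb*, its most abundant gene, had 0.19 (FDR 0.164). With the animal as a replicate block, 1 oxidase gene was higher (*Cybb*, FDR 0.0300) and 4 were lower.

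Markers of cells that the gate could hold also differed between the groups, and their part in the values of the 10 genes was not tested. Of 10 neutrophil markers, which include 4 of the members, 6 were tested and 2 (*S100a9* and *Cd177*) were lower. Their summed level was 342, 366, 301, 435 and 457 CPM in YFP+ cells of m2, m6, m234, m235 and m236 and 291, 343, 345, 354 and 395 CPM in YFP- cells, with *Mmp8* the larger part on average in YFP+ cells and *Csf3r* in YFP- cells, and the groups overlapped. With the block, 2 were higher and 3 lower. Of 10 neutrophil precursor markers, 2 were tested and neither passed in edgeR, DESeq2 or limma, also unadjusted, *Cebpe* with −0.39 (FDR 0.444). This list includes the members *Mpo*, *Elane*, *Ngp*, *Camp* and *Ltf*, so its sum is partly theirs. *Ms4a3* of this list was lower with no filter in edgeR (FDR 0.0110), from 22 counts with the limits given above. The summed levels were 9.53, 9.96, 9.03, 6.92 and 7.10 CPM in YFP+ cells and 13.2, 12.8, 11.8, 8.97 and 7.77 CPM in YFP- cells, lower in the YFP+ library of 5 of 5 animals and led by *Prtn3*.

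Monocyte markers were all tested, 10 of 10, and 5 were lower in YFP+ cells beside *S100a9*, *Lcn2* and *Cxcr2*, among them *Plac8* (−2.19), *Ms4a4c* (−1.17), *Ccr2* (−1.12) and *Vcan*. *Lyz2*, the most abundant, was higher (0.65), and the median was −0.73. The summed level was 29488, 24663, 23387, 21971 and 28871 CPM in YFP+ cells and 20951, 19384, 14969, 19062 and 22688 CPM in YFP- cells. *Lyz2* missed the FDR limit without animal m2 (0.60, FDR 0.0516) or m6 (0.65, FDR 0.0534), *Ms4a4c* without animal m2 (−1.12, FDR 0.0523), and *Vcan* in 5 of the 15 fits that left out a library or an animal (FDR up to 0.113). DESeq2 gave 3 monocyte markers higher and 5 lower, and the block 4 higher and 6 lower.

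Dendritic cell markers were lower in YFP+ cells as well, 4 of 5 tested of 7: *Flt3* (−3.59), *Dpp4* (−3.55), *Ccr7* (−2.76) and *Zbtb46* (−1.65). Like *S100a9*, *Flt3*, *Dpp4* and *Zbtb46* passed the filter through YFP- libraries alone (YFP+ maxima of 0.418, 0.726 and 0.643 CPM), so they could enter only as lower, and the count is not a measure of the list. With no filter these 3 were lower as well (FDR up to 0.00250, for *Zbtb46*). The most abundant, *Clec9a*, had 0.28 (FDR 0.547) and was higher in YFP+ cells of 4 of 5 animals. The summed levels were 20.9, 13.3, 23.3, 13.4 and 8.90 CPM in YFP+ cells and 39.4, 22.8, 38.9, 25.2 and 20.2 CPM in YFP- cells. Red cell markers, 4 of 5 tested and led by *Hba-a1* (−0.56), summed to 10.7, 10.8, 10.9, 5.32 and 7.46 CPM in YFP+ cells and 22.9, 19.0, 15.7, 4.68 and 10.4 CPM in YFP- cells. YFP- m2 and m6 thus held the highest sums, as they held the highest *S100a9* levels. YFP- m234 came next in the sum but was the lowest YFP- library for *S100a9* (0.476 CPM). *Hbb-bs* alone was higher in YFP- m234 (4.76 CPM) than in YFP- m6 (3.84 CPM). In edgeR 0 of the 4 passed the limit and 1 (*Hbb-bs*, −1.05, FDR 0.0521) was lower at an unadjusted p below 0.05, while DESeq2 called 1 lower and limma 0. With the block, 2 were lower, *Hbb-bs* (−0.98, FDR 0.00431) and *Hba-a2* (−0.59, FDR 0.0145), and *Hbb-bs* also passed with no filter (FDR 0.0392), with raw library totals (FDR 0.0450) and in 3 of the 15 fits that left out a library or an animal. These globin genes share 53.2% to 89.3% of their 50-base stretches with one another, so their separate counts are uncertain.

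Microglia markers, 9 of 9 tested, had 0 past the limit in edgeR, with 5 lower at an unadjusted p below 0.05, 1 lower in DESeq2, 0 in limma and 7 lower with the block. Their sums were 1012, 1041, 1088, 756 and 1182 CPM in YFP+ cells and 1653, 1140, 3322, 846 and 1300 CPM in YFP- cells, with *Sparc* the largest change (−1.76, FDR 0.0818), which passed with no filter (−1.73, FDR 0.0464) and with the block (−1.24, FDR 0.0227). YFP- m234 held 636 CPM of *Sparc*, against 43.5 to 151 CPM in the other YFP- libraries, and without it the log2 fold change was −0.70 (FDR 0.209). The microglial sum was highest in YFP- m234, where *S100a9* and *S100a8* were lowest among YFP- libraries. Of 6 border macrophage markers, the 2 tested, *Mrc1* (1.16) and *Pf4* (1.88), were higher in YFP+ cells. *Cd163*, *Lyve1* and *Cbr2* gave no call when fitted without a filter (FDR 0.437, 0.629 and 0.457), and *Cd209f* had 0 counts. The marker sums overlapped, at 133, 82.7, 48.6, 55.6 and 72.4 CPM against 57.4, 35.4, 18.9, 22.5 and 28.3 CPM. *Mrc1* kept its call in 5 of the 15 fits that left out a library or an animal (FDR up to 0.113). *Pf4* is also a platelet marker and was the 1 of 2 platelet markers tested that passed, with platelet sums of 11.5 to 27.2 CPM in YFP+ cells and 4.53 to 11.4 CPM in YFP- cells.

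Lymphocyte and other granulocyte markers were sparse. B cell and plasma cell markers summed to 2.46, 2.79, 3.88, 1.89 and 4.21 CPM in YFP+ cells and 4.51, 4.60, 11, 5.10 and 7.03 CPM in YFP- cells. Of 2 tested among 5, *Jchain* was lower (−2.87, FDR 0.0184, but −3.84 without YFP+ m236 and −3.47 in limma). Among YFP+ libraries *Jchain* passed 1 CPM only in m236 (1.45 CPM). It thus met the filter through YFP- libraries and could enter only as lower. With no filter it was lower as well (−2.85, FDR 0.00440). *Cd79b*, the most abundant, had 0.08. NK cell markers, 0 of 4 tested and led by *Klrb1c*, summed to 0.623, 0.640, 0.568, 0.296 and 0.579 CPM against 1.57, 1.58, 0.715, 0.922 and 0.942 CPM. Both sums were lower in YFP+ cells without overlap, as were 7.61% of genes tested, *S100a9* and *Lcn2* among them. *Cxcr2*, which was below the filter, was also lower without overlap. The sole T cell marker tested of 7, *Lck* (−0.47, FDR 0.546), and the sole eosinophil marker tested of 4, *Siglecf* (−0.87, FDR 0.143), missed the limit, with sums of 1.27 to 2.38 against 0.780 to 3.66 CPM and of 1.86 to 4.42 against 3.08 to 14.4 CPM. With the block *Siglecf* was lower (−0.79, FDR 0.00786). *Epx* and all 4 basophil and mast cell markers had 0 counts. Of 3 neural markers tested among 5, led by *Mbp* (0.18, FDR 0.0789) and with *Gfap* at −0.38, 0 passed the limit in edgeR and limma and 1 in DESeq2, with 1 at an unadjusted p below 0.05 in each, and the sums were 101 to 133 against 92.7 to 135 CPM. *Mbp* was higher in DESeq2 (0.18, FDR 0.0438) and with the block (0.17, FDR 0.00306).

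For the 2 members with the highest CPM as counted, the genes with the most similar pattern over the 10 libraries are given as a description. For *S100a8* in log2 CPM these were *Gm7984* (Pearson r 0.948), *Fbxo42* (0.944), *Slc6a19* (0.944), *Agfg1* (0.941) and *Pid1* (0.940), among 13737 genes. By deviation from the group means they were *Fam129b* (0.979), *Pid1* (0.979), *Ccdc137* (0.956), *Agfg1* (0.952) and *Agap1* (0.952). For *Lcn2* in log2 CPM they were *Pprc1* (0.969), *Dpy19l1* (0.951), *Dnaja2* (0.936), *Sharpin* (0.931) and *Ddx21* (0.930). By deviation from the group means they were *Snx24* (0.953), *Iars2* (0.951), *Atraid* (0.921), *Kti12* (0.920) and *Atad3a* (0.920). The points share library depth and animals, and none of these genes is in the lists of granule genes.

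Promoter sequence is shown for the calprotectin pair, since its members gave unlike values, and because C/EBP factors bind promoters of granule genes in maturing neutrophils. Sequences are from RefSeq (GRCm38.p6), in which 10 of 10 members matched, and run 5′ to 3′ on the strand of the gene up to the base before its first annotated exon. The motif TTNNGNAA was searched on both strands in the 250 bases before each start, and matches are in capitals. 6 of 10 members held a match, as did 12104 of 32851 promoters of that length (36.8%). The stretches are those of *S100a8* on the forward strand (chr3:90668821-90668977) and *S100a9* on the reverse strand (chr3:90695722-90695971).
S100a8: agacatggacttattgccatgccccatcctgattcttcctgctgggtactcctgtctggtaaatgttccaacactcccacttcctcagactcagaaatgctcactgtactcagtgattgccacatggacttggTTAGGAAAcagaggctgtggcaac
S100a9: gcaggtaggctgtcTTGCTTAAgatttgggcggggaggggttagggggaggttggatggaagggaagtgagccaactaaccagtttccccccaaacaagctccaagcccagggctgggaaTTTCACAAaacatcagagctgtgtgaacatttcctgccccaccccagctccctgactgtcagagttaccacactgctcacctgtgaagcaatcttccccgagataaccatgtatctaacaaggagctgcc
*S100a8* held 1 match and *S100a9* held 2. A match is a description of letters and not of binding.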

How the data were processed

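Spinal cord RNA of 10 libraries (NEBNext Ultra II Directional kit, single-end reads) was used as the deposited table of raw counts per gene. Per the labels and methods, the authors aligned reads to GRCm38 with STAR 2.7.10b, used Picard, and counted with summarizeOverlaps (Union mode) over transcripts of the Ensembl basic annotation, summed to genes; the sources used here do not say whether strand was used. Groups came from the sample titles, and so did the animal numbers.

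Counts were tested in R 4.3.3 with edgeR 4.0.16 (TMM, quasi-likelihood test, Benjamini-Hochberg FDR below 0.05, log2 fold change limit 1) on genes above 1 CPM in at least 3 libraries, without a block. Log2 CPM used a prior count of 2. Library totals gave CPM; union exon lengths gave RPKM. Overlaps of exons and shared 50-base stretches came from the reference annotation.

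Libraries of the same animal deviated together (r 0.361 to 0.664, against at most 0.0675 between animals), so the animal numbers pair the samples. No libraries agreed within sampling noise (their chi-square within groups was 17.8 to 71.7 times its degrees of freedom). On simulated counts for 13610 genes, 200 of 200 more abundant genes given a log2 change of 2 were recovered by edgeR, with 3 false calls; smaller changes were not simulated.

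Alternatives were other library sizes, DESeq2 1.42.0, limma 3.58.1, filterByExpr or no filter, a replicate block for the animal, and omission of single libraries and of whole animals. Genes named are the 10 members and from each list the most abundant, the most changed and those past both limits; others (among them *Tlr4*, *Cd14*, *Hdc*, *Spi1*, *Runx1*, *Lrp1*, *Adam8*, *S100a1*, *Mmp8*, *Csf3r*, *Padi4*, *Hba-a2* and *Ms4a3*) were added after their values were seen. The members and lists were chosen with earlier results of these data known, and 2 listed names were not in the table. Some genes that this rule takes are not reported here. No set test was run.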

Additional observations from a re-analysis of the deposited data

Results flagged for a closer look

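In 4 of 47 groups of 5 libraries, 1 library lay farther from the rest than Dixon's limit for 5 samples (0.71 of the group's range), which chance passes in about 1 in 20 groups. The total of YFP- m234 was 8396863 counts, against 28212174 to 35455643 in the other YFP- libraries (ratio 0.732). *Camp* stood at 0.294 CPM in YFP- m2, against 0.0709 to 0.119 CPM in the others (0.784). The NK cell marker sum was 0.296 CPM in YFP+ m235, against 0.568 to 0.640 CPM (0.791). The platelet marker sum was 11.4 CPM in YFP- m2, against 4.53 to 5.98 CPM (0.788).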

How the results depend on the processing

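*S100a9* and *Lcn2* kept their direction in every alternative that gave a value, with log2 fold changes of −3.66 to −3.29 and −1.72 to −1.29 when a library or an animal was left out. *S100a9* could not be fitted in 6 of those 15 cases because it fell below the filter. *S100a8* ranged from 0.10 to 0.36 in them and reached an FDR below 0.05 only with the replicate block (0.26). *Cxcr2* with no filter ranged from −2.70 to −2.10 in such omissions and gave −2.07 in limma. *S100a9* gave −2.41 and −2.63 in limma (prior counts 2 and 0.5). Without the YFP- libraries of m2 and m6, chosen after seeing the data, *Lcn2* gave −1.27 (FDR 0.0806) and 0 members were called lower with the filter, which left *S100a9* out. With no filter *S100a9* gave −1.60 (FDR 0.0745) and *Lcn2* −1.25 (FDR 0.0341), and 2 members (*Lcn2* and *Cxcr2*) were called lower. The cause was not tested.

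The members called higher numbered 1 with the replicate block and 0 whenever a library or an animal was left out. Those called lower numbered 0 to 2 in such omissions, with 0 without animal m2 or m6 and 1 without animal m235 or without a single YFP- library (m2, m6 or m235), and 3 with no filter or with filterByExpr. Among the members tested, the block changed the call of *S100a8* alone. Of all genes tested, the block called 16.8% higher and 18.3% lower, and the fit with no filter called 2.32% of its genes lower. No such share was taken for filterByExpr or for the omissions, so these counts are not a measure of the group of members. With no filter the block gave FDR values too small to be credible (1.06e-27 for *S100a9*), so its calls there (1 higher and 3 lower) are not relied on. Of the 54 related genes tested, 6 were higher and 8 lower. The replicate block gave 15 and 15, and omission of YFP- m2 and m6 gave 3 and 4. With a library or an animal left out they numbered 4 to 7 and 4 to 9. Over all genes, 77 were higher and 122 lower past both limits. Without the fold limit these were 937 and 845; lower genes numbered 186 with DESeq2, 190 with no filter, 213 with the replicate block and 72 without YFP- m2 and m6. Leaving out a library or an animal gave 53 to 87 higher and 68 to 168 lower.

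Signs changed, for causes not tested, for *Cd79b*, *Cebpb*, *Chil3*, *Csf2rb* and *Hba-a1*. With a library or an animal left out, *Cd79b* ranged from −0.12 to 0.46 and *Cebpb* from −0.09 to 0.00. In the same omissions *Chil3* ranged from −0.04 to 0.72 and *Csf2rb* from −0.09 to 0.00. *Cd79b* gave 0.00 in DESeq2 and −0.06 without YFP- m2 and m6, where *Hba-a1* gave 0.23. Of 977 alternative values for 41 named genes outside the members, these 5 included, 904 kept their direction and call. Counts of *Retnlg*, *Ngp*, *Camp* and *Elane* are too few for a small difference to be detectable.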
